A study of Mus musculus with 117 samples.

Results

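The mouse Serpina3 cluster is a row of closely related protease inhibitor genes on chromosome 12, and the 7 genes followed here are Serpina3n, Serpina3i, Serpina3h, Serpina3m, Serpina3g, Serpina3f and Serpina3c. They were chosen by name, as the listed members of the cluster, and make up 7 of the 27179 genes counted in each library, all of which list all 7. The libraries came from mouse spinal cord, before and after a crush injury (SCI) of the thoracic cord. Of these, 70 were enriched for astrocyte RNA and 47 were not. Astrocyte RNA was obtained with RiboTag, in which Cre recombinase switches on an HA-tagged ribosomal protein in one cell type and the tagged ribosomes are pulled down with the RNA they carry. The unbound remainder, called flow-through here, holds RNA of all other cell types and some astrocyte RNA that escaped the pull-down. The pull-down in turn held transcripts used as markers of other cell types (below), and astrocyte RNA is used here as a name for the pull-down.

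All mice were young adults on a C57BL/6 background except the postnatal ages, and all carried the RiboTag allele, the uninjured controls included. In the Aldh1l1-CreERT2-RiboTag line, a tamoxifen-regulated Cre marks cells that express Aldh1l1, a gene of mature astrocytes, at the time of dosing. It gave uninjured females (n = 4) and females at 2 d (n = 5), 5 d, 14 d, 28 d, 42 d and 70 d (n = 4 each) after SCI, plus males at 5 d and 14 d (n = 4 each). Every one of these mice gave both fractions. One flow-through library at 5 d has a sex label of male but a title without it, and it was kept with the group of its title. In the mGfap-Cre-73.12-RiboTag line, the Gfap promoter drives an untimed Cre, so that any cell with a Gfap-expressing ancestor may carry the tag. It gave females at 14 d after SCI (n = 5) and uninjured mice of postnatal day 63 (P63; n = 5, mice 1 to 3 male and 4 and 5 female) with both fractions. Younger uninjured mice gave astrocyte libraries alone, at P0 (n = 4), P3 (n = 3), P7 (n = 3), P14 (n = 5), P21 (n = 4) and P35 (n = 4). By the labels all P0 mice were male and every later age had both sexes, so comparisons with P0 also differ in sex.

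Serpins are suicide inhibitors: a protease cuts an exposed loop of the serpin, the serpin changes shape, and the enzyme is trapped in a covalent complex. Humans have a single SERPINA3 gene, which encodes the plasma protein alpha-1-antichymotrypsin, whereas in mice the same locus has been duplicated many times. In liver these genes belong to the acute phase response, switched on by cytokines of the interleukin-6 family through STAT3, and Serpina3n is also a widely used marker of reactive astrocytes. Its known targets include cathepsin G, leukocyte elastase and granzyme B.

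In mm10 (GRCm38), the coordinates of which the annotation shares, the 7 genes lie between chr12:104146907-104414334, a span of 267428 bp. On the plus strand lie Serpina3f at chr12:104214544-104221129, Serpina3g at chr12:104236147-104241939, Serpina3h at chr12:104247896-104254405, Serpina3i at chr12:104263045-104269509, Serpina3m at chr12:104387157-104394259 and Serpina3n at chr12:104406646-104414334. Serpina3c lies on the minus strand at chr12:104146907-104153929. The annotation lists Serpina3h as a transcribed pseudogene and the other 6 as protein-coding genes. The joined exons measured 2152 bp for Serpina3n, 2461 bp for Serpina3i, 2051 bp for Serpina3h, 1668 bp for Serpina3m, 1908 bp for Serpina3g, 2290 bp for Serpina3f and 1790 bp for Serpina3c.

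Reads were 50 bases long, so the resemblance of these genes limits how well they can be told apart. The closest pair in transcript sequence was Serpina3i and Serpina3h, at 93.2% identity, followed by Serpina3g with Serpina3f and Serpina3g with Serpina3h at 90.4%, Serpina3m with Serpina3c at 90.3% and Serpina3i with Serpina3f at 90.2%. Serpina3n was further off, at 82.9% to 84.5% identity to the other 6. The share of 50-base exon windows that occur only once in the genome was 94.2% for Serpina3n and 94.3% for Serpina3c, but 81.1% for Serpina3m, 82.6% for Serpina3i, 83.3% for Serpina3h and 86.0% for both Serpina3g and Serpina3f. Counts of the last 5, and of Serpina3i and Serpina3h in particular, are therefore uncertain to the extent that reads from one copy could be assigned to another.

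Sequence before the start site was available from RefSeq (GRCm38.p6) for 5 of the 7 members. It is shown because the members moved together after injury in some fractions and apart in others. Serpina3m and Serpina3h had no entry. Each run below is the part of the promoter window (250 bases before to 50 after the start) that lies upstream of the annotated gene, 5′ to 3′ on the gene's strand. Capitals mark matches on either strand to a STAT motif (TTCNNNGAA), an interferon response motif (GAAANNGAA), a glucocorticoid receptor motif (ACANNNTGT), a C/EBP motif (TTGCNNAA), a TATA motif (TATAAA) or the NF-kB motif.
Serpina3n, chr12:104406458-104406645, plus strand: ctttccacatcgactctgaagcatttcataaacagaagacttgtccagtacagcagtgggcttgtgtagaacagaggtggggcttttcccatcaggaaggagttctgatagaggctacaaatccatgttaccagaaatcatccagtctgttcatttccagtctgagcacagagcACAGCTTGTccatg
Serpina3i, chr12:104262872-104263044, plus strand: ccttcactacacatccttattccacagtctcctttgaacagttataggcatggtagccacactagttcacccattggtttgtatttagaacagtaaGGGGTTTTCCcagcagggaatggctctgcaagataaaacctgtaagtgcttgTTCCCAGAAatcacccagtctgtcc
Serpina3g, chr12:104235897-104236146, plus strand: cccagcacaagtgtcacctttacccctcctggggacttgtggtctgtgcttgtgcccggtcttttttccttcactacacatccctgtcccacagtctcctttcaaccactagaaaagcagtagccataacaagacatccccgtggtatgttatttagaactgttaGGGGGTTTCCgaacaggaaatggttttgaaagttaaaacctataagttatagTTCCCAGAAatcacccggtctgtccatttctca
Serpina3f, chr12:104214294-104214543, plus strand: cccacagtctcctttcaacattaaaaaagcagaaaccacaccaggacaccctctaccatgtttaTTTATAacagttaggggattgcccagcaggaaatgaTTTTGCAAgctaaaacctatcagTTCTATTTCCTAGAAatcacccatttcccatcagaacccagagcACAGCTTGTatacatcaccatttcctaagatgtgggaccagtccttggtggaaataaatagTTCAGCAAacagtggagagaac
Serpina3c, chr12:104153930-104154122, minus strand: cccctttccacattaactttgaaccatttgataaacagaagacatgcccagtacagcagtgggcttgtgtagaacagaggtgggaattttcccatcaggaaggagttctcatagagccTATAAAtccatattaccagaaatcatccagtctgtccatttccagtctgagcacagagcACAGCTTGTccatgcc
A STAT match was present in Serpina3i, Serpina3g and Serpina3f and in 8.30% of all 32851 promoter windows of that length. NF-kB matches were present in Serpina3i and Serpina3g (4.51% of all windows), and glucocorticoid receptor matches in Serpina3n, Serpina3f, Serpina3c and, beyond the stretch shown, Serpina3i (6.85%). Serpina3f alone among the 5 had C/EBP matches (10.8%) and an interferon match, which overlaps its STAT match (8.56%). TATA matches were found in Serpina3f and Serpina3c (13.6%). The windows of Serpina3n and Serpina3c were 93.5% identical over 294 bases. A match describes letters in the window and not a bound site.

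Library totals were 67253656 to 128400518 counts (median 93933978) in astrocyte libraries and 40710428 to 136008399 (median 97467271) in flow-through libraries. Levels are given as CPM, counts divided by the library's total in units of 1e6, with totals scaled by edgeR's TMM factors. The summed level of 12 astrocyte markers was 54277 to 64051 CPM in uninjured Aldh1l1 astrocyte libraries and 2082 to 2511 CPM in their flow-through. After injury these markers moved in both fractions (edgeR, FDR under 0.01 against uninjured). In astrocyte libraries 9 of 12 were lower at each of 2 d, 14 d and 70 d (median log2 differences -1.94, -1.27 and -0.94). At these times 0, 1 and 1 were higher. In flow-through 3, 6 and 7 of 12 were higher and 6, 2 and 0 lower. Shares over all genes are given below. Macrophage markers (8 genes) summed to 42.8 to 87.8 CPM in uninjured astrocyte libraries, 2012 to 4061 at 2 d, 13337 to 17514 at 5 d, 9612.95 to 14669 at 14 d and 1128 to 3700.2 at 70 d. In the mGfap line they summed to 139 to 1303 CPM at 14 d, below every Aldh1l1 astrocyte library of that time. Their part in the results below was not tested. In these bulk libraries, fewer cells of a type and less RNA per cell cannot be told apart.

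Before injury the cluster was represented by Serpina3n. Per kilobase of exon, Serpina3n stood at 46.2 ± 5.23 CPM per kb (SD, n = 4) in uninjured astrocyte libraries, Serpina3g at 0.123 ± 0.122, Serpina3c at 0.0801 ± 0.0801, Serpina3h at 0.0246 ± 0.0392, Serpina3f at 0.0128 ± 0.0167, Serpina3m at 0.0128 ± 0.0256 and Serpina3i at 0.00676 ± 0.00564. Serpina3n was above every other member in all 4 mice, while neighbours among the other 6 did not differ beyond their SDs. Serpina3n made up 99.4% ± 0.171% of the cluster's length-scaled RNA there and 91.0% ± 1.20% in uninjured flow-through, where Serpina3g took 6.24% ± 1.83%. The share of Serpina3g in flow-through was 14.5% ± 4.60% at 2 d, beside 80.2% ± 6.54% for Serpina3n, and 0.501% ± 0.0888% at 5 d. In the astrocyte libraries Serpina3n made up 99.2% ± 0.0763% at 2 d and 99.2% ± 0.106% at 14 d.

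**Figure D1:**
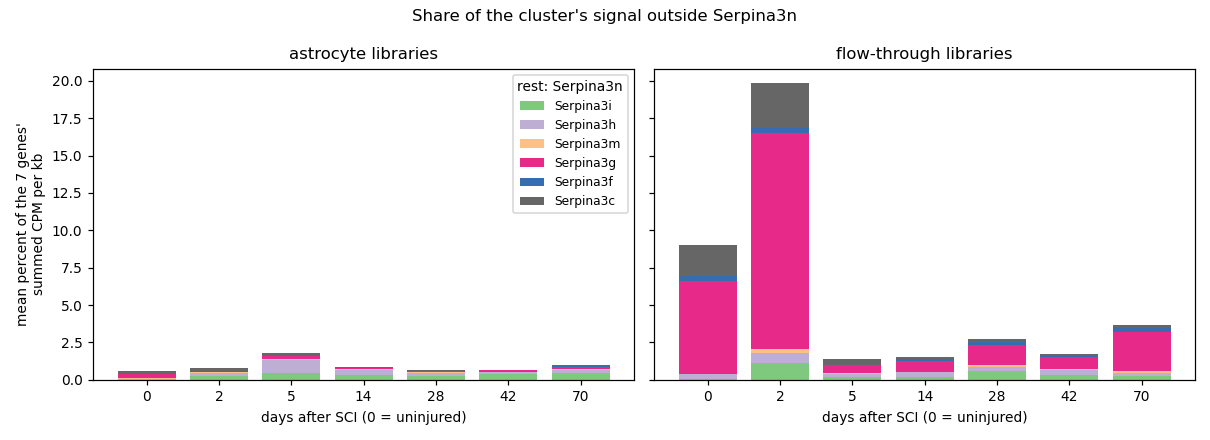
Mean share of the 6 members other than Serpina3n in the cluster's length-scaled RNA (stacked bars, percent of the 7 genes' summed CPM per kb, the rest being Serpina3n) against days after SCI, in astrocyte and flow-through libraries of Aldh1l1-RiboTag females. The astrocyte bars stay low throughout, and Serpina3g fills most of the flow-through bars before injury (6.24%) and at 2 d (14.5%).

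Serpina3n, the reactive astrocyte marker, was higher than in uninjured mice at every time after SCI in astrocyte RNA. Its level in the 4 uninjured mice was 85.3, 107, 109.8 and 95.5 CPM. At 2 d the 5 mice had 439.7, 1122, 812, 695 and 944 CPM, and at 5 d the 4 mice had 629.9, 443, 448 and 779 CPM. All injured values lay above all uninjured ones, with the 2 d and 5 d values overlapping each other. The 14 d values were 2335, 2402, 2663 and 2696 CPM, and those at 28 d were 2798, 3156, 2346 and 3357 CPM. Levels were 2062, 2778, 2464 and 2138 CPM at 42 d and 1161, 715, 1749 and 1998 CPM at 70 d, where all 4 mice lay below the 4 mice of 14 d. Against uninjured the log2 difference was 3.02 ± 0.27 (SE) at 2 d and 2.51 ± 0.27 at 5 d. It was 4.61 ± 0.29 at 14 d and 4.87 ± 0.30 at 28 d, the largest, a 29.3-fold difference. For the last 2 times it came to 4.58 ± 0.29 and 3.83 ± 0.28. FDRs ran from 5.1e-13 to 6.0e-09. FDR stands throughout for the p of the quasi-likelihood test in edgeR, adjusted by the Benjamini-Hochberg method, and a gene is called where it is under 0.01. Between neighbouring times, Serpina3n rose from 5 d to 14 d by 2.11 ± 0.26 (FDR = 6.5e-07). The step from 42 d to 70 d, -0.75 ± 0.25 (FDR = 0.032), did not pass, although without 70 d mouse 4 it did, at -0.97 (FDR = 0.0092).

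Serpina3i and its near copy Serpina3h were almost silent before injury and were found in astrocyte RNA at every time after it. Serpina3i had 3, 0, 2 and 1 raw counts in the 4 uninjured astrocyte libraries, and Serpina3h had 3, 0, 0 and 13; a library with 0 counts allows up to 3. At 2 d Serpina3i was at 1.45, 2.53, 1.73, 1.64 and 2.84 CPM, at 14 d at 8.86, 8.79, 9.71 and 8.23 CPM and at 70 d at 3.79, 6.78, 7.01 and 6.61 CPM. No injured value of either gene overlapped an uninjured one. Pooled over the libraries of a group (summed counts over summed scaled totals), the ratio of Serpina3i to uninjured was 122 (95% interval 55.8 to 334) at 2 d, 534 (95% interval 245 to 1458) at 14 d and 354 (95% interval 162 to 966) at 70 d, intervals that cover counting error only. Serpina3h stood at 0.990, 1.99, 1.40, 1.26 and 2.12 CPM at 2 d, 8.78, 9.94, 8.51 and 8.02 CPM at 14 d and 1.11, 2.56, 4.40 and 4.07 CPM at 70 d, and its pooled ratio at 14 d was 199 (95% interval 122 to 348). Both genes were called higher at all 6 times. The fitted log2 differences ran from 6.82 at 2 d to 9.05 at 42 d for Serpina3i, and from 5.05 at 2 d to 7.49 at 14 d for Serpina3h (FDR = 2.1e-08 at 2 d). These fitted values depend on the few uninjured counts, and for Serpina3h on uninjured mouse 4, which held 13 of the 16. Without it the log2 differences were 7.01 at 2 d and 9.46 at 14 d, still called. Serpina3h also rose from 2 d to 5 d, by 1.60 ± 0.40 (FDR = 0.0013), and Serpina3i from 5 d to 14 d, by 1.52 ± 0.24 (FDR = 1.1e-05).

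Serpina3g, which encodes the inhibitor known as Spi2A and is expressed in cells of the blood lineage, was not called in astrocyte RNA at 2 d but was from 5 d on. It was at 0.155, 0.0639, 0.580 and 0.143 CPM in uninjured astrocyte libraries and 0.219, 0.488, 0.463, 0.363 and 0.207 CPM at 2 d, ranges that overlap, and the difference of 0.55 ± 0.54 did not pass (FDR = 0.37). At 5 d it was at 1.32, 0.815, 1.03 and 1.40 CPM, above every uninjured library and every 2 d library. At 14 d the values were 1.91, 2.43, 1.25 and 1.36 CPM, at 28 d 4.66, 3.48, 1.21 and 1.85 CPM and at 70 d 3.05, 1.56, 1.78 and 1.65 CPM. At 42 d they were 1.28, 2.60, 2.07 and 0.313 CPM, and mouse 4 lay below uninjured mouse 3. The log2 difference from uninjured was 2.23 ± 0.56 at 5 d (FDR = 8.8e-04), and 2.81 ± 0.56 and 3.55 ± 0.58 at the next 2 times. It was 2.72 ± 0.56 at 42 d and 3.08 ± 0.57 at 70 d (FDR = 3.9e-05). The step from 2 d to 5 d, 1.68 ± 0.51 (FDR = 0.0064), passed. It did not when any 1 of 6 libraries was left out (2 d mice 1, 4 and 5 and 5 d mice 1, 3 and 4), where the FDR ran up to 0.020. Uninjured mouse 3 was the highest of its group, and without it the differences from uninjured were larger, up to 4.52 at 28 d, while at 2 d the call was still missed.

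Serpina3c, known from liver as a kallikrein-binding protein, was below 3 CPM in every Aldh1l1 astrocyte library and was called from 2 d to 42 d. In uninjured astrocyte libraries it was at 0.310, 0.213, 0.0509 and 0 CPM and at 2 d at 0.184, 2.29, 1.42, 1.45 and 1.33 CPM, where 2 d mouse 1 fell within the uninjured range and the other 4 above it. At 14 d the values were 0.825, 0.857, 1.15 and 0.927 CPM, and at 70 d 0.357, 0.490, 0.345 and 0.474 CPM, all above the uninjured libraries. It was called higher at 2 d (3.20 ± 0.60, FDR = 2.8e-05), 5 d (2.29 ± 0.60) and 14 d (2.64 ± 0.60). It was also called at 28 d (2.84 ± 0.61) and 42 d (2.54 ± 0.61, FDR = 7.7e-04), but not at 70 d (1.52 ± 0.60, FDR = 0.032). Without uninjured mouse 1, which had 28 of the 53 uninjured counts, it was called at 70 d too, at 2.19 (FDR = 0.0063). When only the 2 groups compared were fitted, the calls at 5 d, 14 d, 28 d and 42 d were lost, with FDRs of 0.019, 0.011, 0.011 and 0.033.

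Serpina3m stayed below 1 CPM in every Aldh1l1 astrocyte library, and Serpina3f in all but 3. Serpina3m had 0, 8, 0 and 0 counts before injury, all in uninjured mouse 2, and was at 0.0921, 0.623, 0.113, 0.654 and 0.792 CPM at 2 d and 0.248, 0.249, 0.486 and 0.247 CPM at 14 d. At 2 d, mice 1 and 3 were at most 0.113 CPM and the other 3 mice between 0.623 and 0.792 CPM. It was called higher at 2 d (4.29 ± 0.89, FDR = 1.1e-04) and from 14 d (3.67 ± 0.89, FDR = 8.6e-04), and the pooled ratio at 14 d was 14.0 (95% interval 6.85 to 33.1). At 5 d it was not (2.08 ± 0.89, FDR = 0.042), except without uninjured mouse 2, at 6.06 (FDR = 1.0e-04). Without that library the 2 d value was 8.28, and the fitted size depends on its 8 counts. Fitted on the 2 groups alone, the calls of Serpina3m were lost at 42 d (FDR = 0.032) and 70 d (FDR = 0.032), and that of Serpina3g at 42 d (FDR = 0.012). Serpina3f had 2, 8, 1 and 0 counts before injury and 0.460, 0.698, 0.444 and 0.528 CPM at 14 d. It was called higher from 14 d (4.03 ± 0.79, FDR = 7.0e-05) to 70 d (4.51 ± 0.80, where mouse 1 had 1.86 CPM and the other 3 at most 0.522). At 2 d and 5 d it did not pass (2.13 ± 0.76 and 2.16 ± 0.78, FDR = 0.015 and 0.017). It did without uninjured mouse 2, at 3.46 (FDR = 0.0015) and 3.48 (FDR = 0.0017), and with DESeq2 (adjusted p = 0.0060 and 0.0069).

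Counted together in astrocyte RNA, 5 of 7 members were called higher at 2 d and 5 at 5 d, 7 at 14 d, 28 d and 42 d, and 6 at 70 d, and none was called lower. Of 18205 genes tested, 30.2%, 28.7%, 24.5%, 22.8%, 23.3% and 23.9% were called higher at these 6 times in turn. Called lower were 29.9%, 22.8% and 21.5% at 2 d, 14 d and 70 d, and that share was not taken at the other times. All injured libraries lay above all uninjured ones for 5, 6, 7, 7, 6 and 7 of the 7 members, against 29.5%, 32.8%, 29.6%, 24.9%, 22.7% and 22.6% of all genes tested. The median log2 difference of the members was 3.20 at 2 d, 4.03 at 14 d and 3.83 at 70 d, beside -0.04, -0.02 and 0.05 over all genes tested. Between neighbouring times, 2 of 7 members were called at 5 d against 2 d (background 41.4%) and 2 at 14 d against 5 d (25.3%). None was called at 28 d against 14 d (7.4%), 42 d against 28 d (1.67%) or 70 d against 42 d (12.6%). The steps with no call had 0, 0 and 2 members at an unadjusted p under 0.05, and DESeq2 called 0, 0 and 0.

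**Figure D2:**
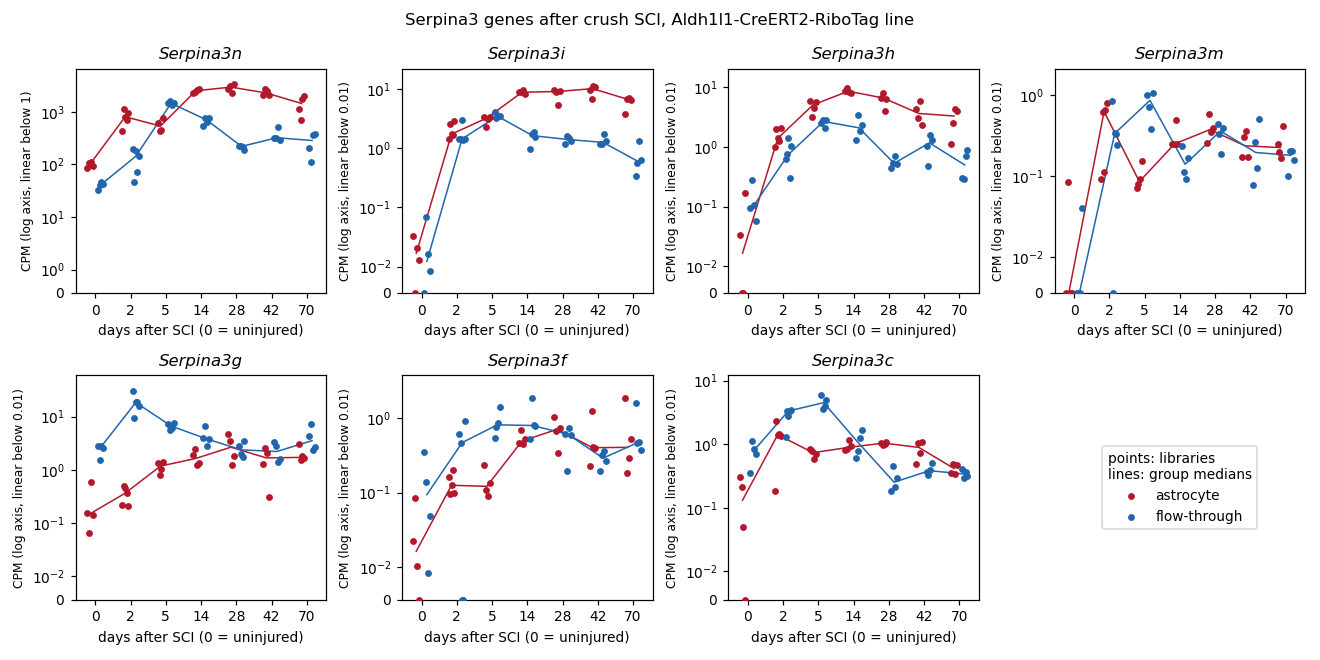
Level of each of the 7 genes (CPM, log axis that turns linear near 0) in every Aldh1l1-RiboTag library of females against days after SCI, uninjured at 0, with points for libraries and lines through group medians for the astrocyte and flow-through fractions. In astrocyte libraries Serpina3n lay at 85.3 to 109.8 CPM before injury and between 2335 and 3357 CPM at 14 d and 28 d, while in flow-through it peaked at 5 d, at 1368 to 1633 CPM.

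In flow-through, Serpina3n peaked earlier and then fell back. The uninjured libraries had 32.8, 40, 45.8 and 41.7 CPM, and those at 2 d had 199, 47.2, 179, 72.8 and 143 CPM. At 5 d the values were 1483, 1633, 1368 and 1451 CPM, at 14 d 552, 776, 647 and 776 CPM and at 28 d 229, 228, 214 and 189 CPM. The 5 d libraries were thus above all other flow-through libraries of females, and every injured library was above every uninjured one. At 70 d Serpina3n was at 206, 113, 367 and 374 CPM. The log2 difference from uninjured was 1.71 ± 0.32 at 2 d, 5.29 ± 0.38 at 5 d and 4.12 ± 0.36 at 14 d. At the 3 later times it was 2.41 ± 0.34, 3.21 ± 0.35 and 2.74 ± 0.34, and each of the 6 was called (largest FDR 2.6e-05, at 2 d).

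Serpina3g was highest in flow-through at 2 d. Uninjured flow-through libraries had 2.77, 1.54, 2.76 and 2.52 CPM and those at 2 d 29.8, 9.43, 18.5, 18.8 and 15.9 CPM, with no overlap. By 5 d the values were 7.15, 5.51, 6.22 and 7.63 CPM and by 28 d 2.76, 1.99, 1.77 and 3.42 CPM, back within reach of the uninjured ones. It was called higher at 2 d (2.98 ± 0.36, FDR = 2.7e-08) and 5 d (1.55 ± 0.35, FDR = 4.5e-04). It was not called at 14 d (0.85 ± 0.35, FDR = 0.042), 28 d (0.04 ± 0.35), 42 d (-0.04 ± 0.35) or 70 d (0.82 ± 0.35, FDR = 0.054).

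Serpina3c was higher in flow-through early and lower at 28 d. It was at 0.349, 1.12, 0.857 and 0.692 CPM before injury, 1.31, 3.33, 2.78, 3.37 and 3.43 CPM at 2 d, 6.04, 3.58, 3.97 and 5.05 CPM at 5 d and 0.182, 0.463, 0.214 and 0.292 CPM at 28 d. It was called higher at 2 d (1.95 ± 0.37) and 5 d (2.70 ± 0.39, FDR = 7.3e-07) and lower at 28 d (-1.40 ± 0.38, FDR = 0.0025). The call at 28 d was lost without uninjured mouse 2, at -1.18 (FDR = 0.014). It was also lost without 28 d mouse 1, at -1.23 (FDR = 0.014), or mouse 3, at -1.28 (FDR = 0.012). At 70 d, -1.11 ± 0.38 (FDR = 0.017) did not pass, but did without uninjured mouse 1, at -1.34 (FDR = 0.0045).

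Serpina3i, Serpina3h and Serpina3m rose in flow-through from near 0, and Serpina3f passed at no time. Serpina3i had 0, 0.0692, 0.0163 and 0.00814 CPM before injury and 4.11, 3.20, 3.47 and 3.50 CPM at 5 d, a pooled ratio of 142 (95% interval 82.7 to 267). It was called at all 6 times, with log2 differences from 4.81 at 70 d to 7.20 at 5 d. Uninjured mouse 2 held 10 of the 13 uninjured counts of Serpina3i, and without it the difference at 5 d was 8.62. Serpina3h, at 0.0951, 0.277, 0.106 and 0.0570 CPM before injury and 2.52, 2.89, 2.06 and 2.86 CPM at 5 d, was also called at all 6 times, from 2.01 at 28 d to 4.32 at 5 d. At 70 d (2.03 ± 0.51, FDR = 0.0014) the call was lost without 70 d mouse 4, at 1.68 (FDR = 0.0102). Serpina3m had 0, 0, 0 and 5 counts in the uninjured libraries and 1.01, 0.703, 0.385 and 1.06 CPM at 5 d, a pooled ratio of 80.8 (95% interval 34.3 to 250.3). It was called at all 6 times (6.23 ± 1.08 at 5 d, FDR = 1.4e-05, and 9.42 without uninjured mouse 4). Its call at 14 d was lost without uninjured mouse 1, 2 or 3 (FDR up to 0.012), and that at 70 d without uninjured mouse 2 or 3 (FDR up to 0.011). Serpina3f was not called (2.78 ± 0.97 at 5 d and 2.88 ± 0.97 at 14 d, FDR = 0.016 and 0.014). It was at both times without uninjured mouse 1, the highest of the 4 at 0.349 CPM, at 3.81 (FDR = 0.0050) and 3.91 (FDR = 0.0046), and with DESeq2 (adjusted p = 0.0050 and 0.0035). Fitted on the 2 groups alone, the calls of Serpina3m at 2 d (FDR = 0.023), Serpina3h at 2 d and 70 d (FDR = 0.013 and 0.012) and Serpina3c at 28 d (FDR = 0.013) were lost.

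In flow-through, 6 members were called higher at 2 d and 6 at 5 d, and 4 at each of 14 d, 28 d, 42 d and 70 d, with Serpina3c called lower at 28 d. Of 19207 genes tested, 32.6%, 27.7%, 24.6%, 26.4%, 25.3% and 21.8% were called higher at the 6 times in turn. Called lower were 32.9%, 19.5% and 15.7% at 2 d, 14 d and 70 d. That share was not taken at 28 d, so the lower call of Serpina3c there has no background beside it. Stromal markers in flow-through were higher over the same times, with a median of 438 CPM summed before injury and 4634 at 2 d, 5004 at 5 d and 6101 at 14 d. Macrophage markers summed to 58.9 to 98.8 CPM before injury and 2393 to 3249.6 CPM at 5 d, below every astrocyte library of females at that time (above). Their part in the members' levels was not tested.

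Because both fractions came from the same cord, each mouse gives its own ratio of astrocyte to flow-through level, taken as log2 of CPM with 0.05 CPM added. Libraries were paired by the replicate number in their titles, which was taken to name the mouse. For Serpina3n the ratios in uninjured mice were 1.38, 1.42, 1.26 and 1.20, and at 2 d they were 1.14, 4.57, 2.18, 3.25 and 2.72. At 5 d they were -1.24, -1.88, -1.61 and -0.90, so that flow-through was above astrocyte RNA in 4 of 4 females. The males at 5 d, -0.70, -1.35, -1.12 and -1.25, lay on the same side in 4 of 4. From 14 d on the ratios were positive again, with means of 1.89 ± 0.21 (SD, n = 4), 3.75 ± 0.30, 2.72 ± 0.37 and 2.45 ± 0.17 at the last 4 times. Tested between fractions, Serpina3n was higher in astrocyte RNA in uninjured mice (1.32 ± 0.12, FDR = 9.0e-07), at 2 d (2.62 ± 0.39), 14 d (1.79 ± 0.11), 28 d (3.75 ± 0.12), 42 d (2.70 ± 0.21) and 70 d (2.38 ± 0.40). It was lower at 5 d (-1.47 ± 0.17, FDR = 3.6e-06). In males at 5 d the difference of -1.17 ± 0.35 (FDR = 0.014) did not pass. It did with mice blocked, at -1.19 (FDR = 6.6e-06), and without astrocyte mouse 1, at -1.43 (FDR = 0.0071), or without flow-through mouse 3, at -1.37 (FDR = 0.0029).

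Serpina3i was enriched in astrocyte RNA from 14 d on and Serpina3h from 5 d on. At 5 d the Serpina3i ratios were -0.28, -0.47, -0.17 and -0.05, a difference that did not pass (-0.34 ± 0.17, FDR = 0.087). At 14 d they were 3.11, 2.31, 2.36 and 2.40, and Serpina3i was called higher in astrocyte RNA at 14 d (2.46 ± 0.18), 28 d (2.56 ± 0.21), 42 d (2.83 ± 0.24) and 70 d (3.06 ± 0.40, FDR = 7.7e-05). Serpina3h was called higher already at 5 d (0.80 ± 0.20, FDR = 0.0025) and at 14 d (1.89 ± 0.23), 28 d (3.50 ± 0.26), 42 d (1.84 ± 0.40) and 70 d (2.44 ± 0.51).

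Serpina3g was lower in astrocyte RNA than in flow-through in every female from before injury to 14 d. Its ratios were -3.78, -3.81, -2.16 and -3.74 before injury, -6.80, -4.14, -5.17, -5.51 and -5.96 at 2 d and -2.39, -2.68, -2.54 and -2.40 at 5 d. By 28 d they straddled 0, at 0.75, 0.79, -0.53 and -0.87, while at 70 d all 4 were below it, at -0.52, -2.18, -0.42 and -0.69. It was called lower in astrocyte than in flow-through RNA in uninjured mice (-3.32 ± 0.57, FDR = 2.8e-04), at 2 d (-5.75 ± 0.39), 5 d (-2.64 ± 0.20) and 14 d (-1.38 ± 0.28, FDR = 6.9e-04). It was not called later (-1.09 ± 0.39 at 70 d, FDR = 0.031). At 5 d Serpina3m (-3.09 ± 0.46), Serpina3f (-2.75 ± 0.43) and Serpina3c (-2.78 ± 0.22) were also lower in astrocyte RNA, and at 28 d Serpina3c was higher (1.84 ± 0.40, FDR = 0.0012). In males the Serpina3g ratios had a mean of -2.48 ± 0.62 (SD, n = 4) at 5 d. In the 14 d males they were 0.15, -0.06, -0.68 and -0.40, and no member was called lower in astrocyte RNA there.

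In numbers, 2 of 4 tested members differed between fractions before injury (background 62.1% of genes). Of 7 members, 2 did so at 2 d (55.7%), 6 at 5 d (64.4%) and 4 at 14 d (62.4%). For 28 d, 42 d and 70 d the counts were 4 (64.4%), 3 (46.8%) and 3 (45.7%). In males it was 4 at 5 d (47.5%) and 3 at 14 d (53.5%). So many genes differed between fractions that these counts are not read as a result about the members.

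**Figure D3:**
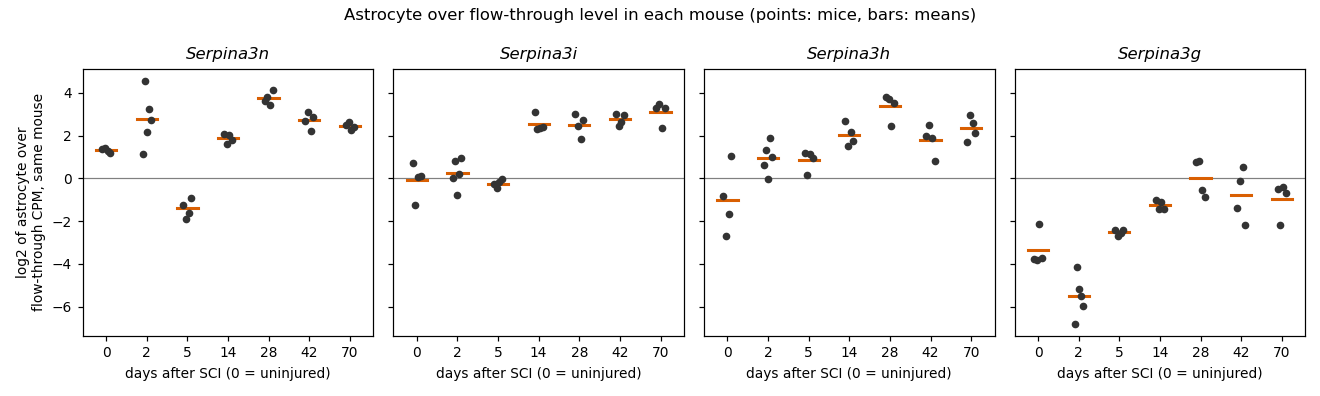
Level in astrocyte RNA over that in flow-through (log2 of the CPM ratio) in each Aldh1l1-RiboTag female (points) for Serpina3n, Serpina3i, Serpina3h and Serpina3g against days after SCI, with bars for group means and a line at 0, where both fractions are equal. Serpina3n lay below the line in 4 of 4 mice at 5 d and above it at the other times, while Serpina3g lay below it in every mouse up to 14 d and again at 70 d.

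Whether a gene's change from uninjured differed between the fractions was tested as an interaction, the change in astrocyte RNA minus the change in flow-through. For Serpina3n it was positive at 2 d (1.5 ± 0.40, FDR = 0.0012) and negative at 5 d (-2.58 ± 0.43, FDR = 2.1e-06). It was positive again at 28 d (2.52 ± 0.43) and 42 d (1.45 ± 0.42, FDR = 0.0059). It did not pass at 14 d (0.63 ± 0.42) or 70 d (1.15 ± 0.42, FDR = 0.038). The 42 d value passed by little. Without any 1 of 9 libraries the call was lost (FDR up to 0.016). Serpina3g rose less in astrocyte RNA at 2 d (-2.25 ± 0.65, FDR = 0.0025) and more at 28 d (3.56 ± 0.66), 42 d (2.83 ± 0.66) and 70 d (2.30 ± 0.66). The 2 d value was -1.26 (FDR = 0.11) without uninjured astrocyte mouse 3, and the 70 d call was lost without any 1 of 9 libraries (FDR up to 0.022). Serpina3h changed more in astrocyte RNA at all 6 times, from 2.57 ± 0.78 at 2 d and 2.52 ± 0.80 at 5 d (FDR = 0.0096) to 5.10 ± 0.81 at 28 d. With mice blocked, the 5 d value was 2.64 (FDR = 0.012). Its call at 2 d was lost without uninjured astrocyte mouse 1, 2 or 3 or uninjured flow-through mouse 2 (FDR up to 0.041). The 5 d call was lost without any 1 of 12 libraries, with RLE scaling (FDR = 0.013) and without a filter on low counts (FDR = 0.0102).

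Serpina3i changed more in astrocyte RNA at 14 d (3.14 ± 0.80), 28 d (3.17 ± 0.80), 42 d (3.42 ± 0.80) and 70 d (3.67 ± 0.80), but all 4 calls rested on uninjured flow-through mouse 2. Without it the values were 1.65 (FDR = 0.31), 1.73 (FDR = 0.25), 1.96 (FDR = 0.21) and 2.20 (FDR = 0.17). Serpina3c did so at 14 d (2.24 ± 0.70, FDR = 0.0097, lost without any 1 of 12 libraries, with RLE scaling and without the low-count filter). It also did so at 28 d (4.29 ± 0.72), 42 d (3.51 ± 0.72) and 70 d (2.68 ± 0.72, and 2.40, FDR = 0.012 without uninjured astrocyte mouse 3). With mice blocked, Serpina3g at 14 d passed as well, at 2.43 (FDR = 0.0019) against 2.09 ± 0.66 (FDR = 0.01002) unblocked. Serpina3m at 5 d did not pass (-3.94 ± 1.38, FDR = 0.020), but did without uninjured flow-through mouse 4, which held all 5 uninjured counts, at -7.09 (FDR = 4.9e-04). The interaction was called for 3 of 7 members at 2 d (background 50.7% of 19640 genes tested), 2 at 5 d (28.5%) and 3 at 14 d (24.5%). For 28 d, 42 d and 70 d the counts were 5 (28.4%), 5 (23.3%) and 4 (17.7%).

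In the mGfap line, Serpina3n, Serpina3i, Serpina3h and Serpina3c were higher at 14 d after SCI than in uninjured adults. Serpina3n was at 86.4, 103, 195, 137 and 112 CPM in the 5 uninjured P63 mice and 1686.8, 2425, 3004, 2917 and 2806 CPM in the 5 injured ones, a rise of 4.43 ± 0.21 (FDR = 3.5e-11). Serpina3i was at 0, 0, 0.0568, 0.0744 and 0.0158 CPM uninjured and 6.88, 4.04, 7.81, 10.3 and 7.48 CPM at 14 d, and Serpina3h at 0.0155, 0.0147, 0.0142, 0.236 and 0.0316 and 3.78, 3.49, 8.16, 12.4 and 5.15 CPM. Serpina3i (7.90 ± 0.49), Serpina3h (6.69 ± 0.75) and Serpina3c (4.10 ± 0.87, FDR = 6.0e-04) were called higher, so that 4 of 7 members passed, all of them higher. The background of 44.2% counts genes called in either direction, and the share called higher alone was not taken. Serpina3g did not (1.31 ± 0.77, FDR = 0.16).

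Serpina3m and Serpina3f set single mice of this line apart. Serpina3m was at 18.9, 43.7, 0.329, 0.299 and 0.532 CPM in the 5 injured mice and 0, 0.0147, 6.17, 0.0124 and 0 CPM in the 5 uninjured ones, and Serpina3f at 9.28, 21.6, 0.302, 0.658 and 0.402 and 0.0310, 0, 2.37, 0.0496 and 0 CPM. The 14 d mice 1 and 2 and P63 mouse 3 were thus the high ones for both genes. In flow-through of the same mice, Serpina3m was at 1.42, 5.70, 0.203, 0.0774 and 0.155 CPM at 14 d and 0.0222, 0.0972, 2.31, 0 and 0 CPM at P63, again highest in these 3 mice. Serpina3f was at 0.995, 3.71, 0.919, 2.33 and 1.37 CPM at 14 d. In the Aldh1l1 line, astrocyte libraries at 14 d had 0.247 to 0.486 CPM of Serpina3m. Serpina3m and Serpina3f had large fitted differences at 14 d that did not pass (3.42 ± 1.54 and 3.78 ± 1.35, FDR = 0.068 and 0.024). Without the mice that stand apart (14 d mice 1 and 2, P63 mouse 3 and, among the young, P35 mouse 1), a setting chosen after seeing the data, they did, at 5.60 (FDR = 0.0013) and 4.45 (FDR = 0.0014). They also did without P63 mouse 3 alone, at 10.60 (FDR = 3.1e-04) and 8.22 (FDR = 2.3e-04). The calls of the other members in this comparison were the same without those mice.

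**Figure D4:**
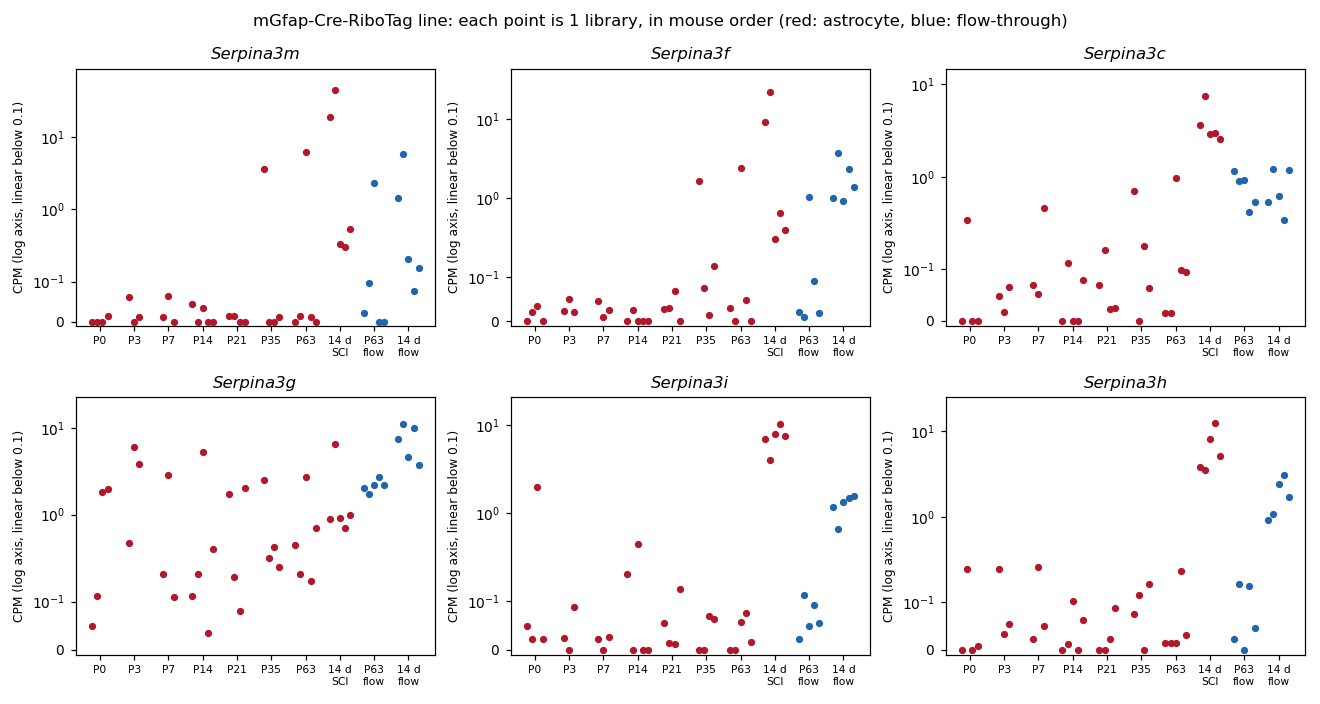
Level (CPM, log axis that turns linear below 0.1) of the 6 members other than Serpina3n in each library of the mGfap line, in mouse order within each group, for astrocyte libraries from P0 to P63 and at 14 d after SCI and for flow-through at P63 and 14 d. For Serpina3m, 14 d mice 1 and 2 (18.9 and 43.7 CPM), P63 mouse 3 (6.17 CPM) and P35 mouse 1 (3.55 CPM) stood apart from the other astrocyte libraries, which were at or below 0.532 CPM.

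Between the lines, none of the members was called among uninjured mice (0.31 ± 0.20 for Serpina3n, FDR = 0.30, edgeR, background 12.4%). Of these, 2 had an unadjusted p under 0.05 and DESeq2 called 0. None was called at 14 d either (0.09 ± 0.20 for Serpina3n and 5.41 ± 1.89 for Serpina3m, FDR = 0.76 and 0.035, background 23.3%). There, 3 had an unadjusted p under 0.05 and DESeq2 called 0. For 1 member, Serpina3c, the 14 d libraries of the lines did not overlap. It was at 2.56 to 7.41 CPM in the mGfap line and at a mean of 0.939 CPM in the Aldh1l1 line. The share of all genes without overlap was not taken. The change from uninjured to 14 d was called different between lines for none (background 12.7%), with 0 and 0 by the same counts. At 14 d, oligodendrocyte markers summed to 28221 to 42063 CPM in the mGfap line and 2380.4 to 3089 CPM in the Aldh1l1 line, a difference whose part here was not tested.

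Between the fractions of the mGfap mice, Serpina3n was higher in astrocyte RNA with and without injury. Serpina3n was at 215, 379.9, 479.8, 372 and 548 CPM in flow-through at 14 d and 26.3, 31.5, 76.9, 34.8 and 33.5 CPM at P63, with differences between fractions of 2.66 ± 0.26 and 1.62 ± 0.31 (FDR = 8.1e-06 and 4.7e-04). At 14 d Serpina3i (2.53 ± 0.30), Serpina3h (1.82 ± 0.43, and 1.79, FDR = 0.011 without flow-through mouse 5) and Serpina3c (2.28 ± 0.43) were too. Without mice 1 and 2, Serpina3c was not, at 1.93 (FDR = 0.013). Blocking by mouse added Serpina3g at 14 d (-2.39, FDR = 9.7e-04, from -1.91 ± 0.64 unblocked) and at P63 (-2.08, FDR = 0.0058, from -1.37 ± 0.60), both lower in astrocyte RNA. It also added Serpina3m at 14 d (2.42, FDR = 0.0011), higher. Without astrocyte mouse 2, Serpina3g at 14 d was called at -3.10 (FDR = 6.0e-05). Without P63 mouse 3, Serpina3g and Serpina3c were called lower in astrocyte RNA at P63, at -2.51 (FDR = 2.8e-04) and -3.70 (FDR = 6.0e-04). Calls numbered 4 of 7 at 14 d (background 46.9%) and 1 of 3 tested at P63 (67.8%).

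During postnatal growth Serpina3n was present from birth and the other members were mostly at trace levels. It was at 86.7, 87.0, 52.9 and 125 CPM at P0, 115, 116 and 120.2 CPM at P3, 133, 114 and 126 CPM at P7 and 68.8, 76.3, 49.7, 78.5 and 103 CPM at P14. At P21 it was at 171, 190.5, 226 and 191 CPM, above every P14 library, and at P35 at 136, 158, 138 and 169.9 CPM. The rise from P14 to P21, 1.35 ± 0.21 (FDR = 1.5e-05), was the only call among the members at any of the steps. The fall from P7 to P14, -0.72 ± 0.22 (FDR = 0.015), did not pass. It was called without P14 mouse 5, at -0.86 (FDR = 0.0048), and with DESeq2 (adjusted p = 0.0062). From P0 to P63 Serpina3n differed by 0.51 ± 0.21 (FDR = 0.038), and by 0.75 (FDR = 0.0038) without P0 mouse 4.

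Ordered by mean, Serpina3n was highest at P21 (195 ± 23 CPM, SD, n = 4), followed by P35 (151 ± 16.2), P63 (127 ± 42.3), P7 (124 ± 9.52), P3 (117.2 ± 2.65), P0 (88.0 ± 29.6) and P14 (75.2 ± 19.2). All neighbours in this order but P21 and P35 differed by less than the larger SD of the pair. All of these lay below the injured adult libraries of the same line. Of the 5 members that could be tested, calls numbered 0 at P3 against P0 (background 4.83%), 0 at P7 against P3 (2.73%), and 0 at P14 against P7 (18.8%). They numbered 1 at P21 against P14 (23.1%), 0 at P35 against P21 (0.66%), 0 at P63 against P35 (2.4%) and, over the whole span, 0 at P63 against P0 (50.2%). At an unadjusted p under 0.05 the counts were 0, 0, 1, 1, 0, 0 and 2, and by DESeq2 0, 0, 1, 1, 0, 0 and 0.

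Single young mice carried some of the other members. Serpina3g was at 0.473, 6.05 and 3.80 CPM in the 3 P3 mice and 0.117, 0.206, 5.21, 0.0356 and 0.399 CPM in the 5 P14 mice. Serpina3m was at 3.55, 0, 0 and 0.0125 CPM at P35, and Serpina3i at 0.0489, 0.0212, 1.97 and 0.0223 CPM at P0, so that 1 mouse of each group supplied nearly all of it. Serpina3c from P0 to P63 did not pass (1.47 ± 1.62, FDR = 0.45), but did without P0 mouse 2, at 7.27 (FDR = 0.0077).

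**Figure D5:**
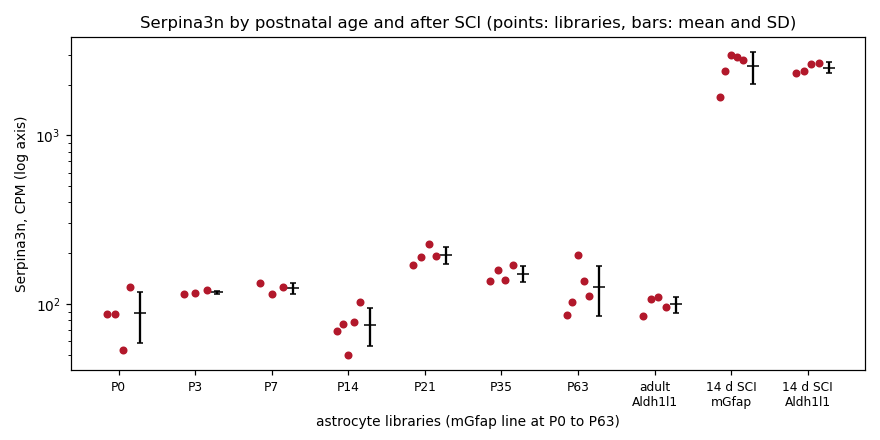
Level of Serpina3n (CPM, log axis) in each astrocyte library of the mGfap line from P0 to P63, of uninjured Aldh1l1 adults and of both lines at 14 d after SCI, with points for libraries and bars for mean and SD. The 4 P21 mice, at 171 to 226 CPM, lay above the 5 P14 mice, at 49.7 to 103 CPM, and the injured mice of both lines, from 1686.8 CPM up, lay above all uninjured ones.

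Between the sexes, none of the 7 members differed in astrocyte RNA across 5 d and 14 d (0.06 ± 0.17 for Serpina3n, FDR = 1.00, edgeR), with 1 at an unadjusted p under 0.05 and 0 called by DESeq2; 0.051% of 17639 genes were called. Male astrocyte libraries had 835, 604, 276 and 475 CPM of Serpina3n at 5 d and 2995, 2918, 2739 and 2718 CPM at 14 d. Male flow-through had 1359, 1545, 601 and 1127 CPM at 5 d and 695, 666, 583 and 469.7 CPM at 14 d, above astrocyte RNA at 5 d and below it at 14 d in all 8 males.

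The genes whose level most resembled that of Serpina3n over the libraries of both fractions were searched among 20472 genes, by Pearson correlation of log2 CPM. This is a description of libraries that share injury times and fractions. They were Csf1, the macrophage growth factor (r = 0.896, and 0.893 over the 70 astrocyte libraries), Osmr, the receptor for oncostatin M (0.881 and 0.941), and then Nfkbie, an inhibitor of NF-kB (0.872), Ggta1 (0.869) and Cdsn (0.868). Those closest to Serpina3i were Pqlc3 (0.906), the acute phase transcription factor Cebpd (0.903), the NF-kB subunit Relb (0.891), the metalloproteinase inhibitor Timp1 (0.891) and the inhibitory Fc receptor Fcgr2b (0.890). Within the cluster, Serpina3n correlated at 0.846 with Serpina3h, 0.837 with Serpina3i, 0.626 with Serpina3f, 0.610 with Serpina3m, 0.554 with Serpina3c and 0.188 with Serpina3g. The near copies Serpina3i and Serpina3h correlated at 0.903.

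Genes of related function were followed as lists, given here for astrocyte RNA against uninjured. Over all genes tested, 30.2% were called higher and 29.9% lower at 2 d. The shares were 24.5% and 22.8% at 14 d, and 23.9% and 21.5% at 70 d. In flow-through they were 32.6% and 32.9%, 24.6% and 19.5%, and 21.8% and 15.7% at these times. List counts near these shares are not read as a result about the list. Of the other Serpina3 genes, 4 were listed and 1, Serpina3b, had enough counts to test, with no call at 2 d, 14 d or 70 d. Other clade A serpins, the family of alpha-1-antitrypsin, had 1 of 6 tested genes higher and 1 lower at 2 d and 2 higher and 0 lower at 14 d. Among them was Serpina1e, an alpha-1-antitrypsin copy, at 0.413 ± 0.229 CPM at 14 d and at 0 in all 4 uninjured libraries (FDR = 2.5e-05). Serpins of other clades had 5 of 23 tested genes higher and 4 lower at 2 d, 9 higher and 2 lower at 14 d and 9 higher and 3 lower at 70 d, with medians of 0.49, 1.04 and 0.61. Serpinf2, the plasmin inhibitor, went from 0.579 ± 0.183 to 36.8 ± 10.0 CPM at 14 d (5.94 ± 0.32, FDR = 1.4e-14).

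Proteases that serpins of this clade are known to inhibit were scored in the same way. They had 3 of 10 tested genes higher and 0 lower at 2 d, 4 higher and 0 lower at 14 d and 6 higher and 0 lower at 70 d, with medians of -0.41, 1.75 and 1.56. Those named by size were the mast cell chymase genes Cma1 (0.0879 ± 0.176 CPM before injury and 9.75 ± 2.94 at 70 d, FDR = 1.8e-05) and Mcpt4 (0.149 ± 0.204 and 11.3 ± 3.70 CPM, FDR = 2.8e-06) and Gzmb, the gene of granzyme B (0.0276 ± 0.0553 and 0.452 ± 0.454 CPM, FDR = 0.0026). In flow-through the list had 3 of 10 tested genes higher and 0 lower at 2 d, 2 higher and 1 lower at 14 d and 5 higher and 0 lower at 70 d.

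Genes of gp130 and STAT3 signalling, the route by which interleukin-6 family cytokines act, had 11 of 17 tested genes higher and 3 lower at 2 d, 10 higher and 1 lower at 14 d and 9 higher and 3 lower at 70 d (medians 2.76, 1.35 and 0.58). The ligand gene Osm was at 0.00649 ± 0.0130 CPM before injury and 6.38 ± 2.38 CPM at 2 d (FDR = 3.1e-12). Its receptor Osmr went from 10.8 ± 1.80 CPM to 128 ± 9.07 CPM at 2 d (3.57 ± 0.13, FDR = 1.9e-19) and was at 101 ± 19.2 CPM at 70 d. The target Cebpd went from 9.91 ± 2.32 to 380.1 ± 58.5 CPM (5.27 ± 0.23, FDR = 1.0e-16).

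Acute phase proteins, which share liver regulation with the cluster, had 8 of 13 tested genes higher and 3 lower at 2 d, 9 higher and 0 lower at 14 d and 8 higher and 0 lower at 70 d (medians 1.80, 1.46 and 1.75). Lcn2, an iron-scavenging lipocalin of reactive astrocytes, was at 14.6 ± 7.64 CPM before injury, 163 ± 64.9 at 2 d, 439.9 ± 74.1 at 14 d and 450.2 ± 109 at 70 d, and was called at each (4.87 ± 0.41 at 14 d, FDR = 2.0e-10). Saa3, serum amyloid A3, changed by 4.50 ± 0.63 at 14 d in astrocyte RNA and by 8.21 ± 0.81 in flow-through. Steap4, a metalloreductase, changed by 4.99 ± 0.28 at 14 d in astrocyte RNA. In flow-through the acute phase list had 8 of 13 tested genes higher and 0 lower at 2 d, 10 higher and 0 lower at 14 d and 11 higher and 0 lower at 70 d. The gp130 and STAT3 list had 10 of 17 tested genes higher and 2 lower, 11 higher and 0 lower and 10 higher and 0 lower.

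Regulators of the interferon response had 8 of 11 tested genes higher and 0 lower at 2 d, 9 higher and 0 lower at 14 d and 6 higher and 0 lower at 70 d (medians 1.01, 1.40 and 1.01). Irf8, a factor of myeloid cells, changed by 5.86 ± 0.38 at 14 d and Irf1 by 2.08 ± 0.29 (FDR = 8.1e-07), at times when macrophage markers were also high in these libraries (above). Glucocorticoid response genes were split, with 4 of 7 tested genes higher and 1 lower at 2 d, 4 higher and 3 lower at 14 d and 3 higher and 3 lower at 70 d (medians 0.99, 1.03 and 0.07). Fkbp5, a chaperone of the receptor, rose by 3.82 ± 0.28 at 2 d and 1.31 ± 0.26 at 70 d (FDR = 1.2e-04), and the metallothionein Mt2 by 1.26 ± 0.14 and 2.04 ± 0.15. In flow-through the interferon list had 10 of 11 tested genes higher and 0 lower at 14 d and the glucocorticoid list 3 of 7 tested genes higher and 0 lower.

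The neighbours of the cluster on chromosome 12 changed in both directions. Of 44 other genes within 1 Mb, 23 were tested, and 7 were higher and 7 lower in astrocyte RNA at 2 d, 6 higher and 4 lower at 14 d, and 5 and 5 at 70 d. Their median log2 difference was -0.16 at 2 d, -0.09 at 14 d and 0.24 at 70 d. Over all genes tested, 30.2%, 24.5% and 23.9% were called higher and 29.9%, 22.8% and 21.5% lower at these times. The counts are therefore not read as a result about the neighbours. Those called at 14 d included the clade A serpins Serpina1e and Serpina12, both below 1 CPM, the interferon-induced Ifi27l2a (1.81), the deubiquitinase Otub2 (-0.87), Clmn (-1.11), Fam181a (-1.12) and Tunar (-2.32). The last 4 were lower than before injury.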

How the data were processed

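Poly-A RNA from the RiboTag pull-down and flow-through of spinal cord was sequenced in paired reads of 50 bases. Per the study's methods and the submitters' processing notes, reads passed through Trimmomatic, then HISAT2 (against mm10), then featureCounts at its default settings. The authors deposited raw counts per gene for each library. A strand setting was not given in the sources used here. All files list the same 27179 genes, in another order in 18 files, and were joined by gene identifier. No 2 libraries were identical, and no row lacked an identifier. Depth by fraction is given in the report; intervals and the limit of 3 counts for a library at 0 cover counting error only.

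From the counts, CPM was computed on TMM-scaled totals, and genes were tested with edgeR (version 4.0.16, R 4.3.3, quasi-likelihood test) after filterByExpr, with Benjamini-Hochberg adjustment over all genes tested and a call at an FDR under 0.01, after the study's own threshold, in 46 comparisons. Changes from uninjured and between times were fitted over all Aldh1l1 females of a fraction, fractions within each group, and lines, ages and sexes over the groups concerned. Pooled ratios (summed counts over summed scaled totals) have 95% intervals from the counts. Scripts were tested on simulated data. Alternatives were an FDR of 0.05, DESeq2 (version 1.42.0), RLE scaling, no low-count filter, a replicate block, the 2 groups alone, each library left out, labelled sex as a covariate, each time alone for sex, CPM on plain totals and, chosen after seeing the data, leaving out 4 mGfap mice with high Serpina3m.

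Libraries of the 2 fractions with the same replicate number in their titles were taken as 1 animal. For 5 d mouse 4 the sex labels differ, female for the astrocyte and male for the flow-through library. Over 47 such pairs, the correlation of the pair's deviations from their group means ran from -0.026 to 0.521 (median 0.108, 25 over 0.1). In all other comparisons the numbers name different mice. Genes named besides the members were the 3 of each list with the largest log2 difference among those called in astrocyte RNA at 70 d, the 5 genes most correlated with Serpina3n, Serpina3i and Serpina3g (log2 CPM, prior count 2), and genes starting within 1 Mb of the cluster. Some genes that this rule names are not reported here. Members, lists and tests were chosen with earlier results of these data known. Symbols, gene positions and promoters came from RefSeq (GRCm38.p6). Each library is one mouse per the labels.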

Additional observations from a re-analysis of the deposited data

Results flagged for a closer look

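In groups of 4 or 5 mice, 25 single values lay further from the rest of their group than Dixon's 95% limit allows, of 167 sets of values tested (a member in a group, with 10 counts or more in some library). For normally distributed values chance flags about 1 in 20, which would be 8.35 of them. The limit was applied to CPM and many of these sets lie near 0, so 25 is not read as an excess over chance. Serpina3n stood apart in 42 d flow-through mouse 3, at 528 CPM (others 291 to 325) and in P63 flow-through mouse 3, at 76.9 CPM (others 26.3 to 34.8). Serpina3i stood apart in 2 d flow-through mouse 3, at 3.01 CPM (others 1.40 to 1.45), in 70 d astrocyte mouse 1, at 3.79 CPM (others 6.61 to 7.01) and in P0 astrocyte mouse 3, at 1.97 CPM (others 0.0212 to 0.0489). Serpina3m stood apart in 14 d astrocyte mouse 3, at 0.486 CPM (others 0.247 to 0.249), in mGfap 14 d flow-through mouse 2, at 5.70 CPM (others 0.0774 to 1.42), in P35 astrocyte mouse 1, at 3.55 CPM (others 0 to 0.0125), in P63 astrocyte mouse 3, at 6.17 CPM (others 0 to 0.0147) and in P63 flow-through mouse 3, at 2.31 CPM (others 0 to 0.0972). Serpina3g stood apart in 70 d astrocyte mouse 1, at 3.05 CPM (others 1.56 to 1.78), in mGfap 14 d astrocyte mouse 2, at 6.50 CPM (others 0.708 to 0.995), in P14 astrocyte mouse 3, at 5.21 CPM (others 0.0356 to 0.399), in P35 astrocyte mouse 1, at 2.53 CPM (others 0.25 to 0.426) and in P63 astrocyte mouse 3, at 2.71 CPM (others 0.174 to 0.710). Serpina3f stood apart in 5 d male astrocyte mouse 1, at 0.379 CPM (others 0.104 to 0.142), in 70 d flow-through mouse 1, at 1.59 CPM (others 0.378 to 0.477), in P35 astrocyte mouse 1, at 1.65 CPM (others 0.0137 to 0.138), in P63 astrocyte mouse 3, at 2.37 CPM (others 0 to 0.0496) and in P63 flow-through mouse 3, at 1.03 CPM (others 0.00972 to 0.0912). Serpina3h stood apart in P0 astrocyte mouse 2, at 0.244 CPM (others 0 to 0.00744) and in P63 astrocyte mouse 4, at 0.236 CPM (others 0.0142 to 0.0316). Serpina3c stood apart in mGfap 14 d astrocyte mouse 2, at 7.41 CPM (others 2.56 to 3.62), in P0 astrocyte mouse 2, at 0.339 CPM (others 0) and in P63 astrocyte mouse 3, at 0.966 CPM (others 0.0147 to 0.0992). P63 mouse 3, over both fractions, accounted for 7 of these values and P35 mouse 1 for 3.

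The change from uninjured differed between astrocyte and flow-through libraries in 22 tests of that difference, named here as the log2 change in astrocyte RNA minus that in flow-through (edgeR, FDR under 0.01). For Serpina3g it was -2.25 (2 d), 3.56 (28 d), 2.83 (42 d) and 2.30 (70 d). For Serpina3n it was 1.5 (2 d), -2.58 (5 d), 2.52 (28 d) and 1.45 (42 d). For Serpina3h it was 2.57 (2 d), 2.52 (5 d), 3.56 (14 d), 5.10 (28 d), 3.42 (42 d) and 4.03 (70 d). For Serpina3c it was 2.24 (14 d), 4.29 (28 d), 3.51 (42 d) and 2.68 (70 d). For Serpina3i it was 3.14 (14 d), 3.17 (28 d), 3.42 (42 d) and 3.67 (70 d). The libraries on which some of these calls rest are named in the report.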

How the results depend on the processing

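No result that was called in the main or the alternative fit changed direction under any alternative. With an FDR of 0.05, the count of members called in astrocyte RNA went from 2 to 4 at 5 d against 2 d and from 0 to 2 at 70 d against 42 d, that between fractions at P63 from 1 to 2, that between lines at 14 d from 0 to 1, that at P14 against P7 from 0 to 1 and that at P63 against P0 from 0 to 2. When only the 2 groups compared were fitted, 4 rather than 7 members were called in astrocyte RNA at 42 d against uninjured, and 4 rather than 2 at 14 d against 5 d. DESeq2 called 1 member at P14 against P7, where edgeR called 0. The interaction at 5 d was called for 1 member rather than 2 with RLE scaling, with no low-count filter and with mice as a replicate block. Without the mGfap mice with high Serpina3m, chosen after seeing the data, 3 rather than 1 members were called between fractions at P63 and 1 rather than 0 at P14 against P7. The cause of these changes was not tested, except that an FDR of 0.05 calls more by construction.

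With mice paired as a replicate block, 2 members were called between fractions at P63 rather than 1; the single members whose calls changed are named in the report, and the block changed no other call between fractions. Where the numbers name different mice, the block gave 1 member at 5 d against 2 d rather than 2 and 1 at P14 against P7 rather than 0 (Serpina3n, -0.85, FDR = 0.0085), and it added Serpina3f in flow-through at 5 d and 14 d (3.28 and 3.24); those samples share only a number.

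Leaving out 1 library gave 1 to 3 members at 5 d against 2 d, 0 to 1 at 70 d against 42 d, 1 to 3 between fractions at P63, 1 to 3 for the interaction at 2 d, 1 to 3 for the interaction at 5 d, 0 to 1 at P14 against P7 and 0 to 1 at P63 against P0. Over 2967 refitted values of single members, 68 calls were lost and 26 gained. Single members kept their call in 270 of 301 tests with an FDR of 0.05, 288 of 301 with DESeq2, 299 of 301 with RLE scaling, 299 of 301 with no filter, 291 of 301 with the block, 100 of 115 with the 2 groups alone, 66 of 73 without the 4 mGfap mice and 63 of 63 with labelled sex as a covariate. On plain totals, 19 of 196 group means moved by more than 1 SD.

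Depth limits the members other than Serpina3n: before injury Serpina3i, Serpina3m, Serpina3f and Serpina3h had 6 to 16 counts over 4 astrocyte libraries, so the size of a change rests on single libraries, and near-identical copies limit which member a read belongs to. Markers of other cell types moved with injury in both fractions, and their part was not tested.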

Other observations

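Levels of other cell type markers in the astrocyte libraries of Aldh1l1 females moved in their own ways while the Serpina3 genes rose. Sums are ranges over 4 mice (5 at 2 d), with no test, and follow the most abundant genes of a list, so the genes called against uninjured (edgeR) are given beside them. Shares of all genes called higher and lower are given in the report. Microglia markers summed to 158 to 188 CPM before injury, 459.8 to 542 at 2 d, 984 to 1084 at 5 d and 668 to 933 at 14 d, with 6 of 8 tested genes higher and 1 lower. Neutrophil markers summed to 94 to 401 CPM before injury and 376 to 1053 CPM at 2 d, with 4 of 8 tested genes higher and 0 lower. Neuron markers summed to 456 to 549 CPM before injury and 146 to 168 CPM at 14 d, with 1 of 10 tested genes higher and 9 lower. Schwann cell markers summed to 601 to 1863 CPM before injury and 557 to 967 CPM at 14 d, with 1 of 6 tested genes higher and 2 lower. At 2 d that list had 0 higher and 5 lower (median log2 difference -1.70). Endothelial markers summed to 15.6 to 26.1 CPM before injury and 27.1 to 31.8 CPM at 14 d, with 1 of 6 tested genes higher and 0 lower. Ependyma markers summed to 79.3 to 95.3 CPM before injury and 178 to 232 CPM at 14 d, with 4 of 6 tested genes higher and 0 lower. The ependyma list went the other way at 2 d, with 0 higher and 5 lower (median log2 difference -2.23). Oligodendrocyte progenitor markers summed to 1194 to 1633 CPM before injury and 311 to 378 CPM at 14 d, with 2 of 6 tested genes higher and 2 lower and a median log2 difference of 0.36, so that the lower sum rests on its abundant genes. T cell and NK cell markers summed to 23.6 to 30.7 CPM before injury and 12.5 to 21.3 CPM at 14 d, with 3 of 6 tested genes higher and 1 lower and a median log2 difference of 1.95, although the sum was lower. At 70 d the T cell and NK cell list had 5 of 6 tested genes higher and 0 lower, with a median of 3.92.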
